A study of Mus musculus with 6 samples.

Results

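Cytosolic ribosomal protein genes were taken as the genes whose symbol starts with Rpl or Rps and a digit, with Rplp0, Rplp1, Rplp2 and Rpsa. Pseudogene symbols and the S6 kinase genes were left out. Of 36172 genes in the table, 86 matched, and 83 of these reached 4 rpkm (mapped reads normalised to gene length and library size) in at least 1 library and were tested among 10042 genes that did. The 83 hold 46 genes of the large subunit and 31 of the small subunit. They also hold 5 copies of subunit genes, namely Rpl7l1, Rpl22l1, Rpl36al, Rps27l and Rps4y2. Of these, Rps4y2 is listed by GENCODE M21 as a transcribed processed pseudogene, which its symbol does not show. The last of the 83 is Rps19bp1, which carries the name but is not a ribosomal protein. The 3 genes that matched by name and were not tested, Rpl3l, Rpl10l and Rpl39l, stood at the lowest value of the table, 1 rpkm, in every library. No gene lay close to the threshold: the highest value was 10.1 rpkm for Rps4y2, the lowest gene above it.

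The libraries came from intestinal tumor-derived organoids, which are tumor epithelial cells grown in a gel, from C57BL/6 mice aged 15 to 20 weeks. All 3 genotypes shared the Apc truncation at codon 716 and loss of the second Apc allele. They differed at Trp53, the mouse p53 gene, with 2 libraries each. Trp53+/+ organoids kept p53. Trp53flox/flox organoids carried R270H alleles behind an unrecombined stop cassette, so that both alleles were functionally null. In Trp53R270H/R270H organoids both alleles had been recombined by tamoxifen and villin-CreER, a recombinase driven in intestinal epithelium, and expressed the missense protein p53 R270H. Whether the Trp53+/+ mice carried villin-CreER or received tamoxifen is not stated in the sources used here. No source used here says whether the 2 libraries of a genotype came from separate mice or cultures, so that p-values measure only the spread between these samples, which may be technical.

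A eukaryotic ribosome is built from a small subunit, which decodes the mRNA, and a large subunit, which joins the amino acids, each made of ribosomal RNA and many small proteins, most of them present in a single copy. Their mRNAs are short and abundant, and most begin with a run of C and T bases, the terminal oligopyrimidine tract, through which mTOR signalling adjusts their translation together. The genes also touch p53: when ribosome assembly is disturbed, Rpl5 and Rpl11 bound to 5S ribosomal RNA, and in part Rpl23, Rpl26, Rps7 and others, can bind Mdm2, the ubiquitin ligase that removes p53. Rps27l is a known p53 target, and Rplp0, Rplp1 and Rplp2 form the stalk of the large subunit that recruits elongation factors.

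The bases around the start sites are shown for members at both ends of the comparison of Trp53R270H/R270H with Trp53+/+, because the pyrimidine tract is the feature these mRNAs are best known to share. Each line holds 15 bases before and 15 bases from the start site listed by RefSeq (GRCm38.p6), 5′ to 3′, with the longest run of C and T in capitals. The first 4 genes had differences well below 0, and the last 3 differences near or above 0. For Rpl34 the first of its 2 listed starts is shown. The capitals mark a run anywhere in these bases, which need not be the tract that begins the mRNA. The runs of Rpl13 and Rps16 end before the listed start, and that of Rpsa begins 6 bases after it.
Rplp2 (chr7:141447636-141447665, plus strand): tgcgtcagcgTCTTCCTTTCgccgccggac
Rpl12 (chr2:32961697-32961726, plus strand): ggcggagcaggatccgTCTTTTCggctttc
Rpl13 (chr8:123102335-123102364, plus strand): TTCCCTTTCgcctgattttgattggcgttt
Rps16 (chr7:28350674-28350703, plus strand): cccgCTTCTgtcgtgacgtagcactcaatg
Rpl14 (chr9:120571502-120571531, plus strand): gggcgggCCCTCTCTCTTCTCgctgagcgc
Rpsa (chr9:120127751-120127780, plus strand): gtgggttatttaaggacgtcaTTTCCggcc
Rpl34 (chr3:130730323-130730352, minus strand): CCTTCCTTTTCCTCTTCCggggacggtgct
The longest run spanned 10, 7, 9 and 5 bases in the first 4 genes, and 14, 5 and 18 bases in the last 3. Among the genes shown, both ends held short and long runs, which is no count over all members. By their differences, Rps27l (9 bases at its first listed start) and Rps10 (13 bases) also belonged to the lower end. Rpl7l1 (2 bases) and Rps19bp1 (3 bases) belonged to the upper end. These genes are not shown, and Rpl36 and Rplp1 had no listed start.

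RefSeq start sites were listed for 62 of the 83 members. Counting a gene once over all its listed starts, 37 of 62 members (59.7%) had a run of at least 6 pyrimidines in this window. The run could lie before or after the start. The share was 32.5% of 7318 other tested genes and 32.7% of all 27025 genes listed. A run of at least 8 was found in 43.5% of members, 14.2% of other tested genes and 13.9% of all. In the promoter window listed by RefSeq, searched on both strands, CCGGAAG, the core bound by ETS factors, occurred in 40.3% of members, 21.9% of other tested genes and 9.93% of all. AANATGGC, the YY1 core, occurred in 21.0%, 10.9% and 6.96% of the same sets. These matches describe letters in the windows and no binding was measured.

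The genotype labels were checked on Trp53 itself, which stood at 75.9 and 74.3 rpkm in the Trp53+/+ libraries, 1.73 and 2.48 rpkm in Trp53flox/flox and 72.8 and 82.7 rpkm in Trp53R270H/R270H. All 11 epithelial markers were detected. Of 8 fibroblast, 5 immune and 3 endothelial markers in the table, those above 4 rpkm in any library were Vim, Acta2, Lyz2 and Cdh5. Among the rest, Col1a2, Col3a1, Lum, Ptprc, Cd3e, C1qa, Pecam1 and Kdr stood at the 1 rpkm floor in every library, and Col1a1, Pdgfra and Dcn were above it only in Trp53flox/flox replicate 2, at 2.44, 1.23 and 1.05 rpkm. Vim stood at 306 and 284 rpkm in Trp53R270H/R270H and at 19.8 to 71.6 rpkm elsewhere, and the part of the cells behind it in the results was not tested. Acta2 and Lyz2 passed 4 rpkm only in Trp53flox/flox replicate 2, at 11.5 and 5.67 rpkm. Cdh5 stood at 8.88 and 9.35 rpkm in Trp53+/+, 1 and 3.30 rpkm in Trp53flox/flox, and 1.04 and 1 rpkm in Trp53R270H/R270H, and fell in both mutant genotypes by limma. In these bulk libraries, fewer cells of a type and less RNA per cell cannot be told apart. The table holds no read counts, so that the depth of each library is not known here. Trp53flox/flox stood apart in its spread: the median SD over all tested genes was 0.25 on the log2 scale, against 0.05 in Trp53+/+ and 0.06 in Trp53R270H/R270H.

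Ribosomal protein mRNAs were a large part of every library and differed in amount between the genotypes. The 83 members summed to 64340 and 61311 rpkm in Trp53+/+, 95186 and 62079 rpkm in Trp53flox/flox, and 45751 and 52402 rpkm in Trp53R270H/R270H. As a share of all summed rpkm this was 15.6 and 15.1% in Trp53+/+, 19.6 and 15.0% in Trp53flox/flox, and 12.1 and 13.4% in Trp53R270H/R270H. Both Trp53R270H/R270H libraries thus lay below the other 4, whereas of the Trp53flox/flox libraries only replicate 1 lay above Trp53+/+. Of the 100 genes with the highest rpkm, 57 and 55 were members in Trp53+/+, 61 and 53 in Trp53flox/flox, and 44 and 51 in Trp53R270H/R270H. The summed small subunit was 0.61 times the summed large subunit in both Trp53+/+ libraries, and 0.60 and 0.61 times in Trp53R270H/R270H. In both Trp53flox/flox libraries it was 0.58 times, below the other 4. With 2 libraries against 2, an exact two-sided test cannot go below p = 0.333, so these sums were not tested.

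The members with the highest mean level on the log2 scale were Rpl7, Rplp0, Rpl10, Rpl12 and Rpl4. Rpl7 stood at 2311 and 2266 rpkm in Trp53+/+, 2666 and 1989 rpkm in Trp53flox/flox, and 1826 and 1728 rpkm in Trp53R270H/R270H. Rpl10, which sits near the peptidyl transferase centre, ran from 1391 to 2273 rpkm over the 6 libraries, and Rpl4 from 1343 to 1983 rpkm. At the other end were Rpl22 at 86.9 to 131 rpkm, the copies Rpl22l1, Rpl7l1 and Rps4y2, and Rps19bp1. Rps4y2 was above the floor only in Trp53flox/flox replicate 2 (10.1 rpkm) and in both Trp53R270H/R270H libraries (1.35 and 2.94 rpkm). Rpl7 and Rpl22, both of the large subunit, thus had mean levels of 2131 and 108 rpkm.

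**Figure D1:**
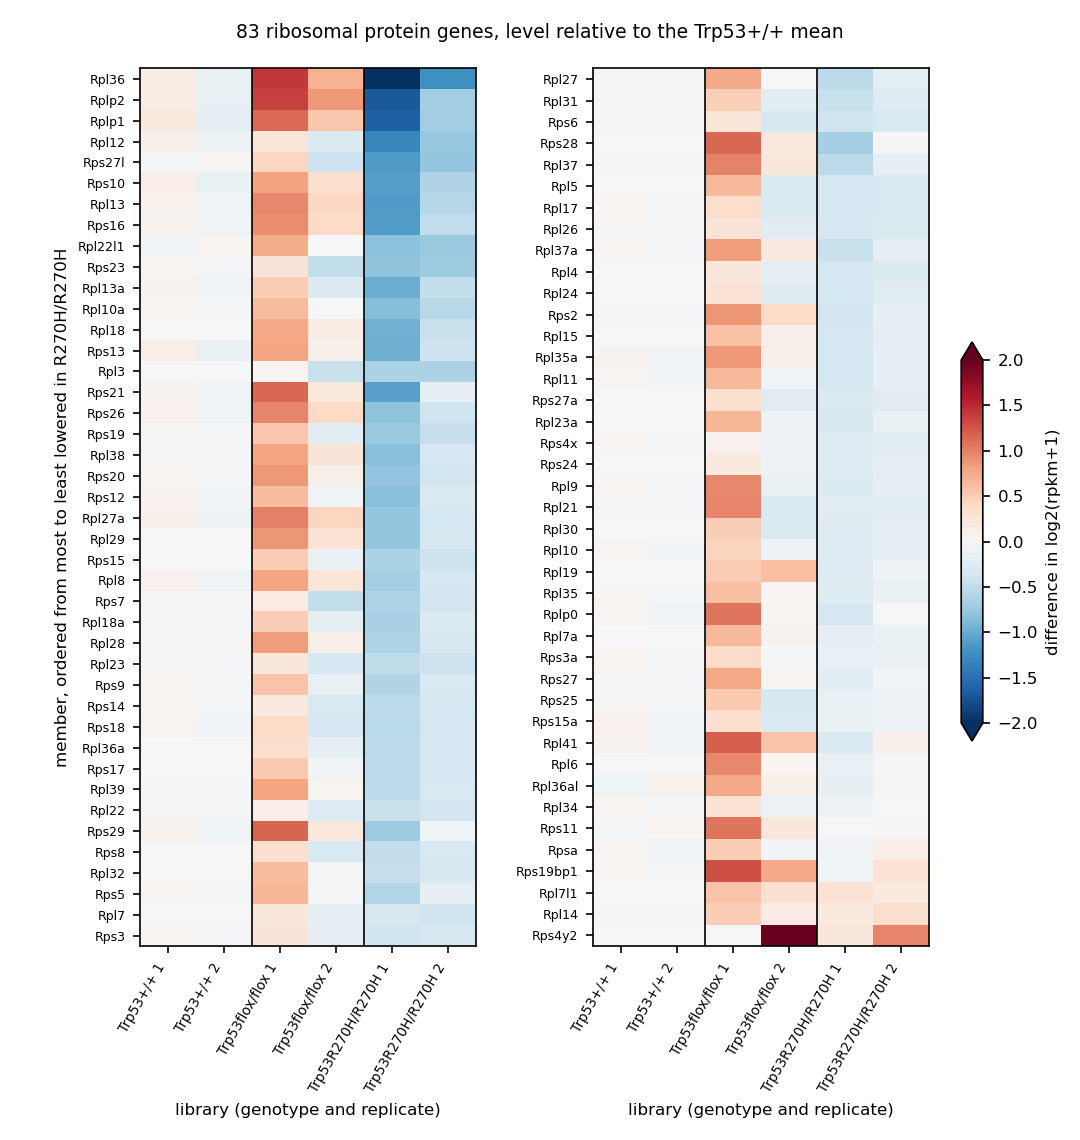
Level of each of the 83 members in each of the 6 libraries, as the difference in log2(rpkm+1) from the mean of the 2 Trp53+/+ libraries (colour, limited to -2 and 2), with members ordered from the lowest to the highest difference between Trp53R270H/R270H and Trp53+/+. Trp53flox/flox replicate 1 is the highest library for 81 members and Trp53R270H/R270H replicate 1 the lowest for 72.

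The first comparison, between organoids expressing p53 R270H and organoids with p53, showed lower ribosomal protein mRNA in Trp53R270H/R270H for most members, with a modest size. The median difference was -0.36 in log2(rpkm+1), the scale of all log2 values here, against 0.03 over all tested genes, and 77 of 83 members were below 0. In 73 members both Trp53R270H/R270H libraries lay below both Trp53+/+ libraries, a pattern seen in 37.6% of all tested genes. In 3 members they lay above, a pattern seen in 44.2% of all. The median was -0.35 for the large subunit, with 45 of 46 genes below 0, and -0.40 for the small subunit, with 29 of 31.

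No member passed limma at an adjusted p of 0.05 when all 6 libraries were fitted together, whereas 12.2% of all tested genes did (5.86% as higher and 6.36% as lower). At an unadjusted p under 0.05 there were 14 members, or 16.9%, against 32.0% of all genes. This fit pools the spread of all 3 genotypes, and the median SD of the members was 0.45 in Trp53flox/flox, 0.04 in Trp53+/+ and 0.14 in Trp53R270H/R270H. With only the Trp53+/+ and Trp53R270H/R270H libraries fitted, 50 members (60.2%) passed as lower and 2 (2.41%) as higher, against 25.7% and 31.2% of all tested genes. The 2 higher members were Rpl14 and Rpl7l1. Without Trp53flox/flox replicate 1 or replicate 2, 50 members passed as lower, against 25.8% and 25.9% of all genes. With a single Trp53flox/flox library, the spread came only from the Trp53+/+ and Trp53R270H/R270H libraries, as in the fit of only these genotypes. Both fits were thus bound to give nearly the same result and are no separate support. With a weight for each genotype 57 members passed as lower, against 27.8% of all genes. With a replicate block no member passed, against 2.94% of all genes as lower. Whether members passed the test thus depended on how the spread was estimated, also from the Trp53flox/flox libraries, which are not part of this comparison. The differences themselves could not depend on those libraries, as in these fits each is taken between the means of the other genotypes.

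Rpl36, a small protein of the large subunit, departed most. It stood at 309 and 251 rpkm in Trp53+/+, 740 and 452 rpkm in Trp53flox/flox, and 48.9 and 118 rpkm in Trp53R270H/R270H. The 3 genotypes did not overlap, but the Trp53R270H/R270H libraries differed by more than 2-fold from each other. Against Trp53+/+ the difference in Trp53R270H/R270H was -1.86 ± 0.47 (SE), or 3.62-fold lower, with a limma adjusted p of 0.0618 for 6 libraries and 0.0184 without Trp53flox/flox replicate 1.

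The stalk proteins Rplp2 and Rplp1 came next. Rplp2 stood at 431 and 353 rpkm in Trp53+/+, 1006 and 712 rpkm in Trp53flox/flox, and 121 and 239 rpkm in Trp53R270H/R270H. Rplp1 stood at 837 and 635 rpkm in Trp53+/+, 1604 and 1056 rpkm in Trp53flox/flox, and 235 and 452 rpkm in Trp53R270H/R270H. For both genes all Trp53flox/flox values were above and all Trp53R270H/R270H values below those of Trp53+/+. The differences from Trp53+/+ in Trp53R270H/R270H were -1.19 ± 0.36 (SE) for Rplp2 and -1.16 ± 0.38 (SE) for Rplp1, with limma adjusted p of 0.0954 and 0.111. Rplp0, the stalk base on which Rplp1 and Rplp2 sit as dimers, differed from its partners. It stood at 1958 and 1827 rpkm in Trp53+/+, 3976 and 1972 rpkm in Trp53flox/flox, and 1493 and 1875 rpkm in Trp53R270H/R270H. Its Trp53R270H/R270H and Trp53+/+ libraries overlapped, with a difference of -0.18 ± 0.36 (SE).

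Rpl12, which lies at the foot of the same stalk, stood at 2201 and 1904 rpkm in Trp53+/+, 2417 and 1702 rpkm in Trp53flox/flox, and 827 and 1207 rpkm in Trp53R270H/R270H. It was lower in both Trp53R270H/R270H libraries than in any other, at -1.03 ± 0.27 (SE), and did not differ in one direction between the other genotypes. Rpl14, of the large subunit, was the one subunit gene of that subunit with a difference above 0. It stood at 968 and 932 rpkm in Trp53+/+, 1329 and 1069 rpkm in Trp53flox/flox, and 1093 and 1183 rpkm in Trp53R270H/R270H. Both mutant genotypes lay above Trp53+/+, by 0.26 ± 0.16 (SE) in Trp53R270H/R270H. Rpsa, a small-subunit protein also known as the laminin receptor precursor, stood at 1031 and 958 rpkm in Trp53+/+ and 944 and 1084 rpkm in Trp53R270H/R270H. These ranges overlapped.

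**Figure D2:**
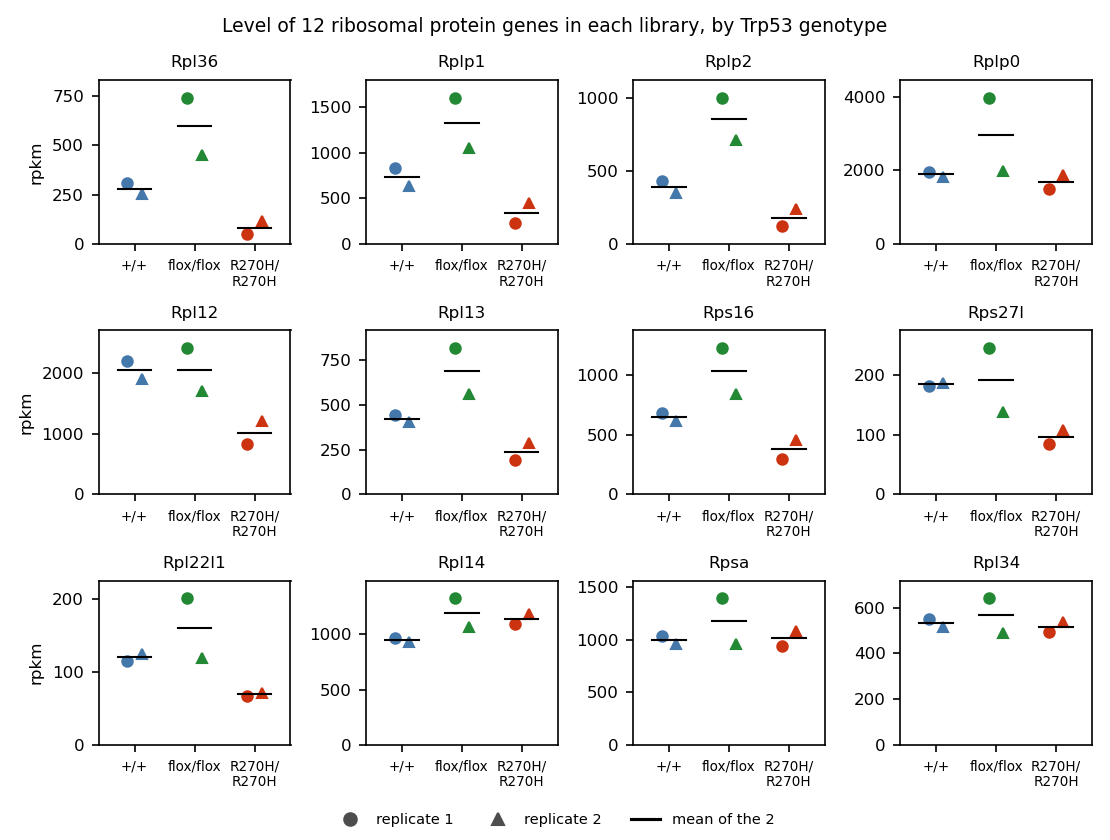
Level in rpkm of 12 members in each library, by Trp53 genotype, with circles for replicate 1, triangles for replicate 2 and a line for the mean of the 2. Rpl36, Rplp1, Rplp2, Rpl13 and Rps16 order the genotypes as Trp53flox/flox above Trp53+/+ above Trp53R270H/R270H with no overlap, and Rpl14 shows higher levels in both mutant genotypes than in Trp53+/+.

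The second comparison, between organoids without p53 and organoids with p53, showed higher values in Trp53flox/flox, with a median that depended on 1 library. The median difference was 0.32, with 73 of 83 members above 0, against -0.02 over all tested genes. Both Trp53flox/flox libraries lay above both Trp53+/+ libraries in 34 members, a pattern of 30.6% of all genes, and below in none, a pattern of 33.9%. Only Rps19bp1 passed limma as higher (4.38% of all genes did), and none as lower (6.90% did). Rps19bp1, whose product binds Rps19 and activates the deacetylase Sirt1, stood at 10.9 and 10.3 rpkm in Trp53+/+, 27.4 and 18.6 rpkm in Trp53flox/flox, and 9.91 and 13.2 rpkm in Trp53R270H/R270H. Its difference was 1.02 ± 0.22 (SE), with a limma adjusted p of 0.0487. No subunit gene passed, and 9 members had an unadjusted p under 0.05, or 10.8% against 34.7% of all genes.

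Taken singly against the Trp53+/+ mean, Trp53flox/flox replicate 1 had a median difference of 0.61, with 82 members above 0 and none below. Replicate 2 had a median of -0.04, with 39 above and 44 below. Without replicate 1, 10 members passed limma as lower and 4 as higher, against 21.3% and 19.1% of all genes. Without replicate 2, 66 passed as higher, against 31.6%. Each of these fits holds 1 Trp53flox/flox library, which is assumed to vary like the others. The direction of the median therefore depended on which of the libraries was kept. Both Trp53flox/flox libraries lay above the other 4 in 33 members, against 19.9% of all genes. Rps19bp1 no longer passed with a replicate block, with weights or with only the 2 genotypes, where 0.707, 0.349 and 0.0896% of all genes passed as higher and 2.08, 1.15 and 0.378% as lower. Nor did it without Trp53+/+ replicate 1, where 0.0797% of all genes passed as lower, without replicate 2 of that genotype or without either Trp53R270H/R270H library.

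Of the 34 members higher in both libraries, 2 are given here. Rpl41, the shortest ribosomal protein, stood at 897 and 823 rpkm in Trp53+/+, 1978 and 1275 rpkm in Trp53flox/flox, and 704 and 918 rpkm in Trp53R270H/R270H. Its difference in Trp53flox/flox was 0.89 ± 0.26 (SE), with a limma adjusted p of 0.0855. Rpl19 was the only subunit gene with a higher value in Trp53flox/flox replicate 2 than in replicate 1, at 1986 against 1866 rpkm, and stood at 1314 and 1302 rpkm in Trp53+/+. At the lower end of this comparison was Rpl3, which helps form the peptidyl transferase centre, at 1250 and 1247 rpkm in Trp53+/+ and 1277 and 913 rpkm in Trp53flox/flox, values that overlap.

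The third comparison, between the mutant protein and no protein, had a median of -0.64, against 0.03 over all genes, and every member was lower in Trp53R270H/R270H with all 6 libraries. Without Trp53flox/flox replicate 1 the median was -0.28, nearer 0 than that of the first comparison, and 8 members were above 0. With the correction for length and GC content described further on, 12 were above 0. The genotypes did not overlap in 70 members, against 31.2% of all genes in that direction. In 20 members, or 24.1%, the decrease passed limma, against 11.0% of all genes, and none passed as higher (13.6%). In either direction 24.6% of all genes passed. Of the 20, 13 belong to the large subunit and 5 to the small subunit, and the others are Rpl22l1 and Rps19bp1. This comparison and the preceding ones share libraries, so that they are not separate evidence.

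The 12 called members with the largest decreases were Rpl36, Rplp2, Rplp1, Rpl13, Rps16, Rps10, Rps26, Rpl27a, Rpl18, Rpl22l1, Rps13 and Rpl29. Rpl36 fell by 2.91 ± 0.47 (SE), or 7.51-fold, with a limma adjusted p of 0.0166. Rplp2 fell by 2.31 ± 0.36 (SE), and Rplp1 fell by 1.99 ± 0.38 (SE). The stalk pair and Rpl36 thus stood at the extreme of both comparisons that involve Trp53R270H/R270H.

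Rpl13 stood at 817 and 559 rpkm in Trp53flox/flox and 192 and 284 rpkm in Trp53R270H/R270H, with 441 and 401 rpkm in Trp53+/+. Rps16, which lies near the decoding site, stood at 1223 and 838 rpkm in Trp53flox/flox and 297 and 456 rpkm in Trp53R270H/R270H, with 676 and 611 rpkm in Trp53+/+. Rps10 stood at 1391 and 1006 rpkm in Trp53flox/flox and 373 and 528 rpkm in Trp53R270H/R270H, with 876 and 728 rpkm in Trp53+/+. In each of these 3 genes the Trp53+/+ libraries lay between the others. The differences were -1.53, -1.46 and -1.41, in the same order. Those of Rps26, Rpl27a, Rpl18, Rpl22l1, Rps13 and Rpl29 ran from -1.29 to -1.13.

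At the other end, Rpl14, Rpl34 and Rps15a differed by -0.07, -0.12 and -0.15 between Trp53R270H/R270H and Trp53flox/flox, and none passed. Rpl34 of the large subunit stood at 550 and 517 rpkm in Trp53+/+, 643 and 491 rpkm in Trp53flox/flox, and 496 and 539 rpkm in Trp53R270H/R270H. All 3 genotypes overlapped for it. Rps15a shares sequence with a pseudogene, Rps15a-ps4, that was itself listed at 54.4 to 100 rpkm, and how reads matching several genes were counted is not stated.

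The calls of this comparison also depended on the fit. Only 4 remained with a replicate block, namely Rpl13, Rpl36, Rplp2 and Rps10, against 4.86% of all genes, and 1, Rpl22l1, with a weight for each genotype, against 1.56%. None passed when only these 2 genotypes were fitted, where 1.20% of all genes passed as lower, when either Trp53+/+ library was left out (1.19% without replicate 1), or without Trp53R270H/R270H replicate 1 (0.299%). Without Trp53flox/flox replicate 1, 30 members passed as lower, against 23.9% of all genes. Without replicate 2 of that genotype, the median was -1.02 and 81 passed, against 33.8%. Without Trp53R270H/R270H replicate 2, 2 passed, against 0.976%.

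The 2 libraries of a genotype differed for the whole group in the same way, and in Trp53flox/flox by as much as the genotypes differed. In Trp53flox/flox, 81 of 83 members were lower in replicate 2, with a median difference of -0.63 against 0 for all genes. In Trp53R270H/R270H, 79 members were higher in replicate 2, with a median of 0.19 against 0. In Trp53+/+ the median was -0.06. Trp53flox/flox replicate 1 was the highest of the 6 libraries for 81 members, compared with 31.8% of all genes, and Trp53R270H/R270H replicate 1 the lowest for 72, compared with 20.3%. Each Trp53R270H/R270H library was below the Trp53+/+ mean by itself, with medians of -0.46 and -0.29, and with 80 and 74 members below 0. In 64 members, both lay below the other 4 libraries, a pattern found in 18.7% of all genes. In no member did both Trp53+/+ libraries lie above the other 4, a pattern found in 17.1%.

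**Figure D3:**
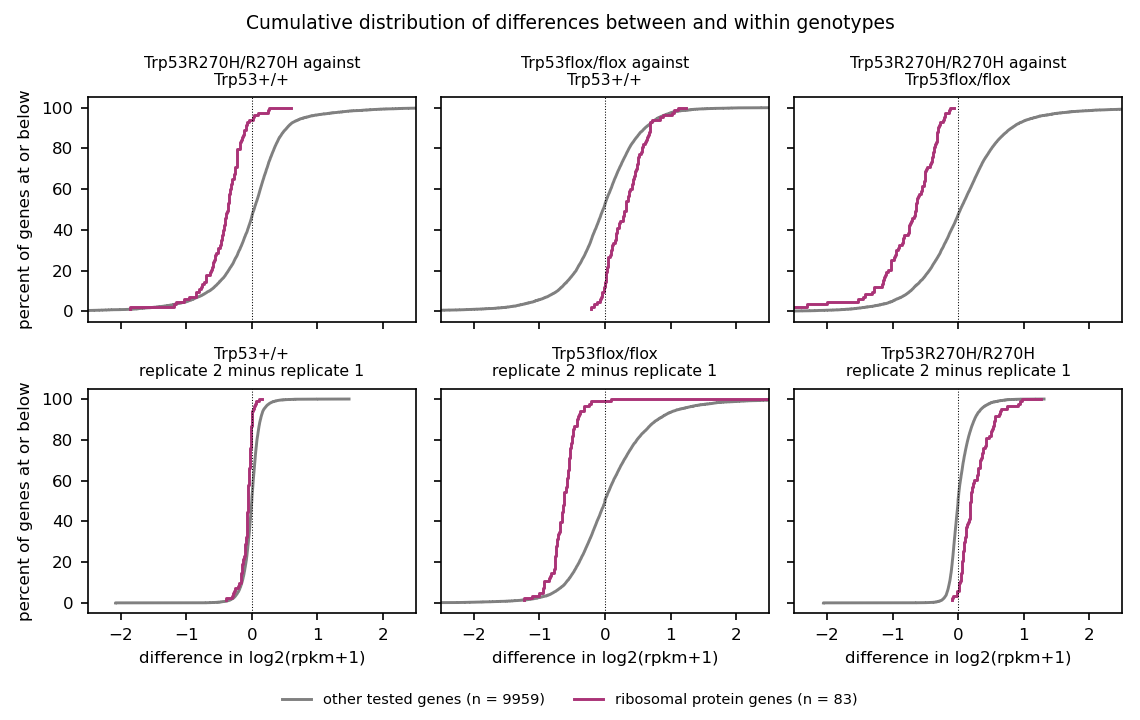
Cumulative percent of genes at or below a given difference in log2(rpkm+1), for the 83 members and the other tested genes, in the 3 comparisons of genotypes (top) and between the 2 libraries of each genotype (bottom), shown from -2.5 to 2.5. The members are shifted to the left in both comparisons of Trp53R270H/R270H and between the Trp53flox/flox libraries, and to the right between the Trp53R270H/R270H libraries.

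The same 3 genes led the replicate differences in Trp53R270H/R270H, where replicate 2 exceeded replicate 1 by 1.26 for Rpl36, 0.97 for Rplp2 and 0.94 for Rplp1. They also led in Trp53+/+, where replicate 2 was below replicate 1 by -0.30, -0.29 and -0.40. In both genotypes the library with less of one had less of the others. In Trp53flox/flox the largest differences after Rps4y2 were those of Rpl21 (858 and 363 rpkm) and Rpl9 (2328 and 1081 rpkm), at -1.24 and -1.11.

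These last 2 genes lie on chromosome 5 (Rpl21 at chr5:146832890-146837032 and Rpl9 at chr5:65388364-65391444), and next in rank was Rplp0 at chr5:115559467-115563727, at -1.01. The remaining members on this chromosome, Rpl5 and Rpl6, ranked 7 and 8 of 83. The median of these 5 members between the Trp53flox/flox libraries was -1.01, against -0.61 for the 78 members elsewhere. The 646 other tested genes of chromosome 5 had a median of -0.32, against 0.01 for other genes elsewhere. The pattern on chromosome 5 was noticed in the data and is given as a description, and the copy number of the chromosome was not measured.

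Members are short and vary in base composition, and the differences moved with both properties in other genes too. The median transcript length was 833 bases for members and 2920 bases for other tested genes, and the median GC content 50.9 and 50.2%. Among other tested genes of 700 to 1000 bases, the median difference between the Trp53flox/flox libraries was -0.51, close to the -0.58 of the 27 members of that class, while it was 0.25 for those of at least 3000 bases. Among members the median was -0.66 under 700 bases, -0.43 for the 9 members of 1500 to 3000 bases and -0.69 for the 2 longer ones. Spearman's rho with length was 0.27 for members and 0.54 for others. In the comparison of Trp53R270H/R270H with Trp53flox/flox, the medians of that shorter class were -0.54 for others and -0.64 for members. In the comparison of Trp53R270H/R270H with Trp53+/+, they were -0.14 and -0.33. By mean log2 level, 100 other genes between 8 and 10 had a median of 0 and 43 members one of -0.44 in the comparison of Trp53R270H/R270H with Trp53+/+. Above 10, 14 other genes had a median of -0.18 and 25 members one of -0.23, and the medians against Trp53flox/flox were -0.53 and -0.51.

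GC content went with the difference between the Trp53R270H/R270H libraries. Spearman's rho across genes was 0.51 for the 83 members and 0.58 for 9902 others, where genes share libraries and are not independent replicates. Rpl36 has the highest GC content of all members, 60.8%, in a transcript of 383 bases. After a per-library correction for length and GC content fitted on other genes, a step added after the data were seen, the medians were -0.18, 0.14 and -0.34 in the 3 comparisons, and -0.26 between the Trp53flox/flox libraries. Each median was nearer 0 than without the correction. In that fit 7 members passed limma as lower in Trp53R270H/R270H than in Trp53+/+ (Rpl3, Rpl10a, Rpl12, Rpl13, Rpl36, Rps10 and Rps27l), against 11.3% of all genes, and Rpl14 and Rps19bp1 as higher, against 11.9%. Rpl7l1, Rpl37a, Rpl41, Rps19bp1 and Rps26 passed as higher in Trp53flox/flox than in Trp53+/+, against 12.7% of all genes. Against Trp53flox/flox, 24 passed as lower (14.7% of all genes) and Rpl14 and Rpl34 as higher (13.7%), and the differences of Rpl36, Rplp2 and Rplp1 were -1.91, -1.81 and -1.30.

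**Figure D4:**
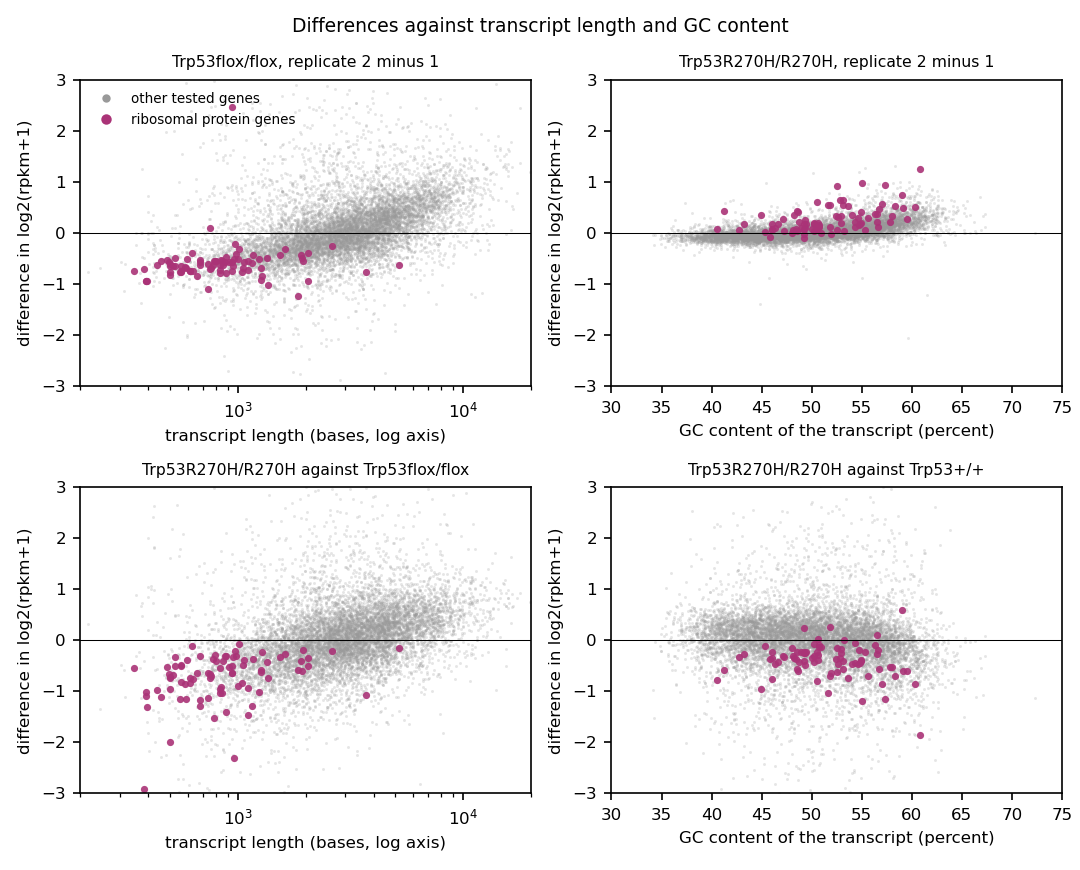
Differences in log2(rpkm+1) of members and other tested genes against transcript length (left, log axis) and GC content (right), between the libraries of a genotype (top) and between genotypes (bottom), shown from -3 to 3. Among other genes, short ones are lower in Trp53flox/flox replicate 2 and in Trp53R270H/R270H, while members of all lengths are mostly lower there, and GC-rich genes of both kinds are higher in Trp53R270H/R270H replicate 2.

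The members linked to Mdm2 or to ribosome disease had differences in the range of the other members. Rpl5 stood at 829 and 816 rpkm in Trp53+/+, 1287 and 672 rpkm in Trp53flox/flox, and 642 and 666 rpkm in Trp53R270H/R270H. Rpl11, its partner in the 5S particle, stood at 1189 and 1104 rpkm in Trp53+/+, 1804 and 1092 rpkm in Trp53flox/flox, and 898 and 1026 rpkm in Trp53R270H/R270H. Both were lowest in the Trp53R270H/R270H libraries, without overlap, by -0.33 and -0.25 against Trp53+/+. Rpl23, Rpl26, Rps7 and Rps14 differed from Trp53+/+ by -0.46, -0.31, -0.49 and -0.44, and Rps19, mutated in Diamond-Blackfan anemia, by -0.60. With all 6 libraries in 1 fit, none of the 7 passed limma in any of the 3 comparisons. With a weight for each genotype, all but Rpl11 passed as lower in Trp53R270H/R270H than in Trp53+/+. In that fit 68.7% of members and 27.8% of all genes passed as lower. Taken singly, Trp53flox/flox replicate 2 was below Trp53+/+ in all 7, from -0.07 for Rpl11 to -0.49 for Rps7. Of all 83 members, 44 were below 0 in that library. Trp53flox/flox replicate 1 was above both Trp53+/+ libraries in all 7, and 82 of the 83 members were above 0 in it. Mdm2 itself stood at 40.5 and 44.2 rpkm in Trp53+/+, 14.4 and 16.9 rpkm in Trp53flox/flox, and 23.0 and 22.5 rpkm in Trp53R270H/R270H, and fell in both mutant genotypes (limma adjusted p of 0.0156 in Trp53R270H/R270H and 0.00794 in Trp53flox/flox).

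The p53 target Rps27l stood at 182 and 187 rpkm in Trp53+/+, 245 and 138 rpkm in Trp53flox/flox, and 83.4 and 107 rpkm in Trp53R270H/R270H. It was lower than in Trp53+/+ in both Trp53R270H/R270H libraries, by -0.95 ± 0.29 (SE), and in 1 of the 2 Trp53flox/flox libraries. Its parent subunit gene Rps27 stood at 303 and 292 rpkm in Trp53+/+, 510 and 306 rpkm in Trp53flox/flox, and 255 and 285 rpkm in Trp53R270H/R270H. The ratio of Rps27l to Rps27 within a library removes what moves both genes alike. It was 0.60 and 0.64 in Trp53+/+, 0.48 and 0.45 in Trp53flox/flox, and 0.33 and 0.38 in Trp53R270H/R270H. The 3 genotypes did not overlap, and both genotypes without wild-type p53 were below Trp53+/+. In Trp53flox/flox the lower ratio went with Rps27, which differed from Trp53+/+ by 0.41, while Rps27l differed by -0.0045. The ratios of the copies given next also lay apart from Trp53+/+ in both mutant genotypes. Cdkn1a, another p53 target, stood at 110 and 122 rpkm in Trp53+/+, 11.8 and 27.0 rpkm in Trp53flox/flox, and 31.9 and 29.5 rpkm in Trp53R270H/R270H.

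The ratios of the other copies also differed between genotypes. Rpl22l1, which can replace Rpl22 on the ribosome, stood at 116 and 125 rpkm in Trp53+/+, 202 and 119 rpkm in Trp53flox/flox, and 67.6 and 71.4 rpkm in Trp53R270H/R270H. Rpl22 stood at 122 and 117 rpkm in Trp53+/+, 131 and 99.4 rpkm in Trp53flox/flox, and 86.9 and 91.9 rpkm in Trp53R270H/R270H. The ratio of Rpl22l1 to Rpl22 was 0.95 and 1.07 in Trp53+/+, 1.54 and 1.20 in Trp53flox/flox, and 0.78 in both Trp53R270H/R270H libraries, so that the genotypes did not overlap. The decrease of Rpl22l1 between Trp53flox/flox and Trp53R270H/R270H was the one call that held with a weight for each genotype (limma adjusted p of 0.0471).

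Rpl36al, a copy of Rpl36a, was 0.51 and 0.58 times Rpl36a in Trp53+/+, 0.72 and 0.66 times in Trp53flox/flox, and 0.70 times in both Trp53R270H/R270H libraries. Rpl7l1, a ribosome assembly factor related to Rpl7, stood at 41.3 and 40.7 rpkm in Trp53+/+, 61.6 and 51.6 rpkm in Trp53flox/flox, and 50.4 and 47.1 rpkm in Trp53R270H/R270H. Both mutant genotypes lay above Trp53+/+ for Rpl7l1 itself. Its ratio to Rpl7 was 0.0179 in both Trp53+/+ libraries, 0.0231 and 0.0260 in Trp53flox/flox, and 0.0276 and 0.0273 in Trp53R270H/R270H. This ratio too did not overlap between genotypes, and how often ratios of other gene pairs do so was not counted. Reads from such near copies can be split between them, so that these levels are less certain than those of single-copy genes. Transcript length also differs, at 552 bases for Rpl22l1 and 2051 for Rpl22, and at 2606 for Rpl7l1 and 1163 for Rpl7. Differences moved with length in other genes, and the ratios were not corrected for it. On the X chromosome, Rpl39 stood at 224 to 564 rpkm and Rps4x at 1289 to 1637 rpkm, and neither passed limma in any comparison.

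**Figure D5:**
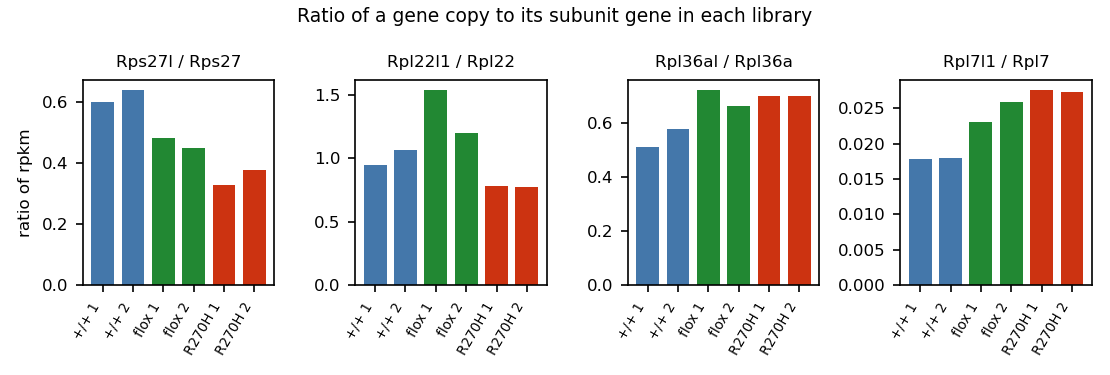
Ratio of the rpkm of a gene copy to that of its subunit gene in each library (bars, from 0; flox and R270H on the axis stand for Trp53flox/flox and Trp53R270H/R270H). The ratios of Rps27l to Rps27, of Rpl22l1 to Rpl22 and of Rpl7l1 to Rpl7 do not overlap between genotypes. The ratio of Rpl36al to Rpl36a overlaps between the mutant genotypes.

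Related genes outside the set moved in part alike. Fau, which encodes a ribosomal protein fused to a ubiquitin-like protein, and Gnb2l1, the ribosome scaffold now called Rack1, differed by -1.08 and -0.40 between Trp53R270H/R270H and Trp53+/+, and neither passed limma. Fau stood at 332 and 286 rpkm in Trp53+/+, 434 and 294 rpkm in Trp53flox/flox, and 110 and 191 rpkm in Trp53R270H/R270H. It fell between Trp53flox/flox and Trp53R270H/R270H by 1.29 (limma adjusted p of 0.0419).

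The 75 tested genes of the mitochondrial ribosome, a separate particle in the mitochondria, had medians of -0.07, 0.46 and -0.48 in the 3 comparisons, in the order used above. In these comparisons 1, 6 and 20 of them passed limma, as lower, higher and lower, against 6.36, 4.38 and 11.0% of all genes in the same directions. These calls were made with all 6 libraries in 1 fit. They shared the difference between the Trp53flox/flox libraries, at -0.53, and had a median nearer 0 than the cytosolic genes between Trp53R270H/R270H and Trp53+/+. Of 23 genes for translation factors and other mRNAs with pyrimidine tracts, Eef1b2 and Tpt1 passed as lower in Trp53R270H/R270H against Trp53+/+. Over all genes 6.36% did. The median of the 23 was -0.24, with 14 below 0. Of 46 genes of ribosome assembly, such as Ncl and Npm1, none passed in this comparison, against 12.2% of all genes. Their median was -0.01. In the comparison with Trp53flox/flox, 7 of these passed as lower and 2 as higher, against 11.0 and 13.6% of all genes. Of the 46, 27 were below 0 there.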

How the data were processed

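Poly(A) RNA of tumor organoids was sequenced by the authors from strand-specific libraries on an Illumina instrument. Per the labels and the study's methods, the reads were mapped to mm10 and rpkm values per gene were calculated in StrandNGS. Its version, gene annotation and treatment of reads with several matches are not given in the sources used here. The deposited rpkm table has 36172 genes and 6 libraries. The smallest deposited rpkm is 1 in every library, which acts as a floor, and levels under it are unknown. rpkm is relative to all mapped reads, so that a change in a few abundant mRNAs shifts all others.

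The values were transformed as log2(rpkm+1), which understates differences of low genes. The 10042 genes reaching 4 rpkm in any of the libraries were fitted with limma 3.58.1 in R 4.3.3 (lmFit, eBayes with trend), all 6 libraries in 1 fit without a block, two-sided, with Benjamini-Hochberg adjustment over all tested genes at 0.05. No fit dropped or imputed a library unless stated. Figures and descriptions were made with Python 3.11.15. The members and gene lists were chosen with earlier results of these data known. Medians, sums and counts over members were not tested.

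Named members were those linked to p53, copies, the stalk and a few others set by name, up to 12 called members per comparison and direction without overlap, the 5 highest and 5 lowest in mean level, the 3 with the largest replicate difference per genotype, and the 5 per direction departing most from the median. Transcript length and GC content came from 1 transcript per gene of GENCODE M21 (GRCm38), matched for 9985 tested genes and all 83 members. Start sites came from RefSeq. The correction subtracted, per library, a loess surface over log2 length and GC content fitted on genes that are not members. The fit was tried on simulated data with equal spread in all libraries, and the correction on a length trend planted in 1 library. Neither trial covered the unequal spread of the genotypes or a trend with GC content.

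Replicate numbers come from the sample titles, and no source says what a shared number means. The correlations of their deviations over all tested genes were 0.12 (Trp53+/+ and Trp53flox/flox), -0.29 (Trp53+/+ and Trp53R270H/R270H) and -0.20 (Trp53flox/flox and Trp53R270H/R270H), so that the numbers were not taken as pairs. Alternatives were other pseudocounts, filters and scalings, no trend, weights per genotype, fits of the 2 genotypes compared, a replicate block, each library left out, and subunit genes alone.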

Additional observations from a re-analysis of the deposited data

How the results depend on the processing

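The counts of members called depended on how the spread was estimated, and the medians that involve Trp53flox/flox on which of its libraries was kept. The percentages in parentheses are the shares of all tested genes called in either direction by the same fit. For Trp53R270H/R270H against Trp53+/+ (0 called of 83), 59 were called with weights for each genotype (59.6%), 52 with only the 2 genotypes fitted (57%), 9 with the length and GC correction (23.2%), 50 with the correction without Trp53flox/flox replicate 1 (63.6%), and 6 with a block on exchanged Trp53R270H/R270H numbers (9.37%). Leaving out 1 library gave 0 to 52, with 52 without either Trp53flox/flox library (57.1%). For Trp53flox/flox against Trp53+/+ (1 called), 0 were called with weights (0.349% as higher and 1.15% as lower). With only the 2 genotypes 0 were called (0.0896% as higher and 0.378% as lower), and 0 with subunit genes alone (11.3%). A pseudocount of 0.1, no pseudocount and a filter above 1 rpkm also gave 0, and their shares are not given here. There were 5 with the correction (23%), 26 with the correction without Trp53flox/flox replicate 1 (50.5%), and 2 with exchanged numbers (8.69%), while leaving out 1 library gave 0 to 66 (68.5% for the latter). For Trp53R270H/R270H against Trp53flox/flox (20 called), 1 was called with weights (5.32%), 0 with only the 2 genotypes (3.76%), 42 with the correction without Trp53flox/flox replicate 1 (56.7%), and 0 to 81 with 1 library left out (72.3% for the latter). Medians moved to -0.18 (Trp53R270H/R270H against Trp53+/+) with the correction, with or without Trp53flox/flox replicate 1, and to -0.18 (Trp53R270H/R270H against Trp53flox/flox) with the correction and without that library. The correction and the exchanged numbers were chosen after seeing the data. With 1 library left out, the median of Trp53flox/flox against Trp53+/+ ranged from -0.039 to 0.61 and that of Trp53R270H/R270H against Trp53flox/flox from -1.02 to -0.28. The cause was not tested. None of the 21 calls of the fit with all 6 libraries changed sign under the alternatives run for single genes. Calls made by an alternative alone were not compared in this way.

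The replicate numbers were not taken as pairs. With a replicate block, 0, 0 and 4 members were called in the 3 comparisons. Of all genes, 2.54, 0.707 and 6.65% passed as higher and 2.94, 2.08 and 4.86% as lower, in the same order. Scaling by median of ratios or upper quartile, eBayes without a trend and a stricter filter left each count within 1.5 times its value. With 2 libraries per genotype and no read counts, the spread of a single genotype is poorly known and counting error cannot be given.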

Other observations

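The 3 genes with a pseudogene symbol that reached 4 rpkm were left out of the set. Rps15a-ps4 stood at 59.3 and 54.4 rpkm in Trp53+/+, 100.4 and 71.0 rpkm in Trp53flox/flox, and 55.1 and 56.5 rpkm in Trp53R270H/R270H, with the same highest library as most members. Rps15a-ps6 was above the floor only in Trp53flox/flox replicate 1, at 17.5 rpkm. Rps19-ps3 stood at 5.04 and 5.56 rpkm in Trp53R270H/R270H and at 1.74 to 2.47 rpkm elsewhere, so that it was higher where Rps19 was lowest. How reads matching both a copy and its parent gene were counted is not stated.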
